A study of Mus musculus with 9 samples.

Results

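Regulatory T cells (Tregs), the CD4+ T cells that restrain other immune cells, were compared between tumours that carry the integrin subunit β8 and tumours that do not. Both tumours were Lewis lung carcinoma (LLC), a mouse lung tumour line grown in mice, and the Tregs were sorted from them as CD4+ GFP+ cells. The comparison holds 6 of the 9 sequenced libraries, chosen by their group labels: 3 from mock-transfected LLC of mice labelled untreated (Mock) and 3 from b8-expressing LLC of mice given an isotype control antibody (β8 isotype). The mice of both groups were wild-type C57BL/6, each library was a pool of 3 to 4 mice, and tumours were harvested on day 14. Because the Mock mice received no antibody, β8 on the tumour and the isotype antibody cannot be told apart in any difference given here. The labels do not say which GFP reporter was used, how old the mice were and of which sex, the isotype dose, and whether the transfected lines are clones, and a pool gives 1 value for its mice together.

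On the surface of a cell the integrin αvβ8 holds latent TGF-β and frees the active cytokine, which acts on neighbouring cells through its receptors and the SMAD transcription factors. Tregs both use TGF-β and present it: they carry the latent form on the GARP protein and need the transcription factor Foxp3 for their identity. Interferons act on Tregs through their own receptors, JAK kinases and STAT transcription factors. Type I interferons induce antiviral genes, and interferon-γ also induces GTPases of the cell-autonomous defence and the machinery that loads peptides on MHC class I.

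Expression was measured as FPKM, the number of sequenced fragments relative to transcript length and library size, in a table that the authors had normalized. A gene was tested when it reached 1 FPKM in at least 3 of the 6 libraries, which 11507 of 16409 genes did. Differences are β8 isotype minus Mock on the log2(FPKM + 1) scale with the standard error (SE) of the limma fit of these 6 libraries, levels are FPKM with the standard deviation (SD) over 3 pools, and a gene passed at an adjusted p under 0.05. The 6 libraries had 11921 to 12177 genes at 1 FPKM or more and estimated depths of 0.87 to 1.20 times that of Mock pool 1. Mitochondrial transcripts made up 0.776% to 1.16% of their FPKM. Correlations of log2 values across genes were 0.921 to 0.948 between pools of 1 group and 0.913 to 0.945 between pools of different groups, so the groups were not separated by overall profile. The defining Treg markers were present in every pool: Foxp3 measured 117, 86.8 and 99.4 FPKM in the Mock pools and 100.3, 73.2 and 113 in the β8 isotype pools. The markers fixed for Tregs, with the T cell genes Cd3e, Trac and Cd4 among them, summed to 3531 to 3911 FPKM in Mock and 4558 to 4803 in β8 isotype. Trac was the largest part of these sums, at 1671 ± 104 and 2214 ± 28.0 FPKM. Foxp3, Cd4 and Cd3g overlapped between the groups.

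Tregs of β8 isotype tumours had higher levels of the surface protein gene Ly6a, of interferon-induced genes, of MHC class I loading genes, of Gzmb, Tnfrsf4 and Ikzf2 and of Myc. They had lower levels of Ctla2a, Tmem158, Tff1, Hspa1a and a few small RNAs. In all 53 of 11507 genes passed (0.461%), 34 of them higher (0.295%) and 19 lower (0.165%), by limma's moderated test with Benjamini-Hochberg adjustment. In each of the 53 the 3 pools of one group lay wholly above those of the other. Among all genes tested, 18% had pools that did not overlap, 9.31% higher and 8.66% lower, and 12.6% had an unadjusted p under 0.05 (6.74% higher and 5.88% lower). The difference of the median gene was 0.013. Of the 34 higher genes 20 had a mean of at least 100 FPKM in β8 isotype, so these are abundant transcripts, and 7 had a Mock mean under 5 FPKM. Of the 19 lower genes 12 code for proteins. In all 1 of the higher and 3 of the lower genes reached the level for a test only through the group in which they were high, with no pool of the other group at 1 FPKM, so that they had to differ.

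The number of genes that passed depended on the libraries and on the settings. Each of the 53 kept its direction in every setting that tested it. Since their pools lay wholly apart, only the unnormalized values, scaled or not, could have changed a direction. The number that passed was 12 without Mock pool 1, 54 without Mock pool 2, 8 without Mock pool 3, 38 without β8 isotype pool 1, 10 without pool 2 and 16 without pool 3. Without Mock pool 3, 7 genes passed higher and 1 lower. In the unnormalized table scaled to the median, 11 passed higher and 11 lower in place of 34 and 19. For genes named below, the number of the 16 alternatives in which they also passed is given as a measure of this; it ran from 1 for Ikzf2 and Il12rb1 to 15 for Ly6a.

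**Figure D1:**
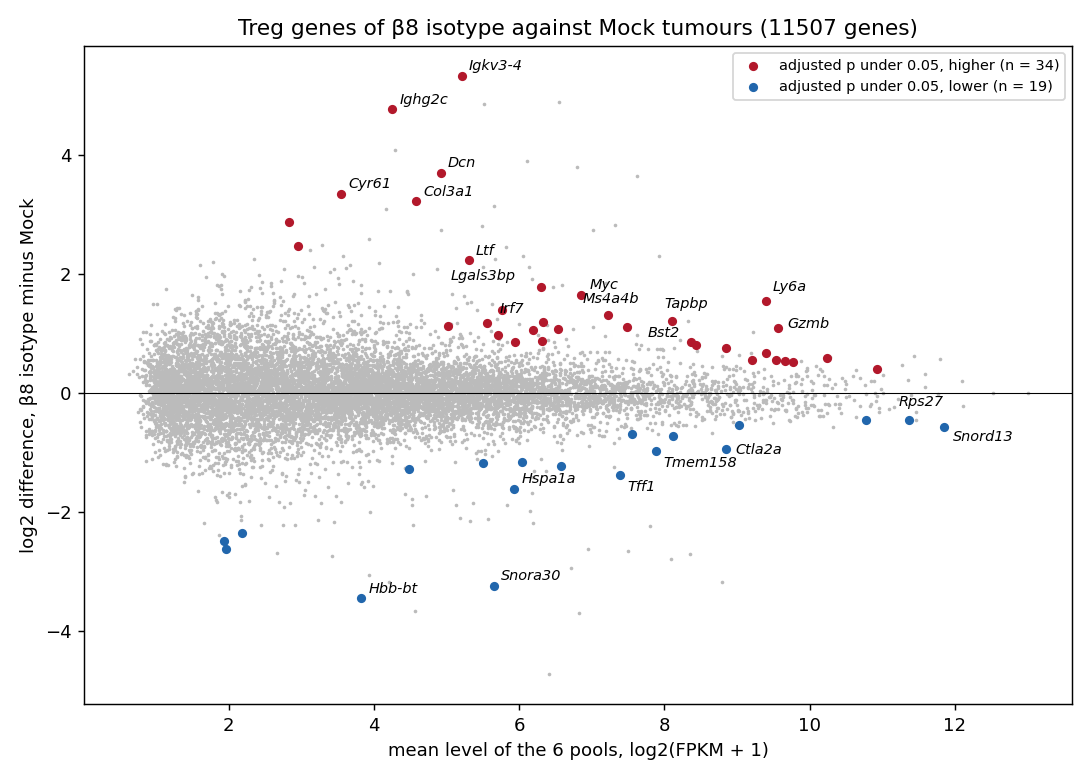
Each point is 1 of the 11507 genes tested, with the log2(FPKM + 1) of its mean FPKM over the 6 pools on the horizontal axis. The vertical axis is its log2 difference, β8 isotype minus Mock. Red and blue points are the 34 higher and 19 lower genes that passed. Most genes that passed are moderate differences of well expressed genes such as Ly6a and Ctla2a. The largest rises that passed, such as Igkv3-4, Ighg2c and Dcn, are of genes near 0 in Mock. The largest falls that passed, Hbb-bt and Snora30, are of genes with Mock means of 25.3 and 89.8 FPKM.

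Ly6a, which encodes Sca-1, a GPI-anchored surface protein of lymphocytes and stem cells that interferons induce, had the smallest p of all genes. It measured 291, 407 and 338 FPKM in the Mock pools and 1050.1, 976 and 969 in the β8 isotype pools. The 3 β8 isotype pools lay close together, at more than any Mock pool. The difference was 1.54 ± 0.12 (limma adjusted p = 0.000918), it ranged from 1.43 to 1.67 when any 1 pool was left out, and it passed in 15 of 16 alternatives, all but the fit without trend and robust settings. Ly6a lies on chromosome 15 at 74994877 to 74998031 of GRCm38, beside other members of the Ly6 family with similar sequences, between which reads can be shared. Of 8 family members tested 7 were above 0 (median 0.60) and Ly6a alone passed. Ly6e was at 1376 ± 135 FPKM in Mock and at 1798 ± 117 in β8 isotype (0.39 ± 0.093, limma adjusted p = 0.102). Ly6c2, a marker of memory and inflammatory cells, spread widely in β8 isotype, at 252, 125 and 69.2 FPKM against 84.4, 53.3 and 50.2 in Mock, and Ly6c1 measured 11.5 ± 7.82 and 17.2 ± 2.26; the pools of both overlapped.

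Ms4a4b, a 4-span membrane protein of T cells in mice, rose from 83.8, 94.3 and 76.0 FPKM in Mock to 222, 211 and 199.5 in β8 isotype (1.31 ± 0.14, limma adjusted p = 0.00409, 14 of 16 alternatives). Within each group its pools differed little, and the groups were far apart. Ms4a4b has close relatives beside it on chromosome 19 with which reads can be shared.

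The receptors for interferon did not pass. Ifnar1 and Ifnar2, the chains of the type I receptor, measured 29.3 ± 5.57 and 75.8 ± 6.85 FPKM in Mock and 30.2 ± 8.79 and 75.9 ± 3.35 in β8 isotype. Ifngr1, a chain of the interferon-γ receptor, measured 385, 477 and 404 FPKM in Mock and 714, 469.7 and 574 in β8 isotype, with overlapping pools (0.46 ± 0.15, limma adjusted p = 0.233). The cytokine gene Ifng was low and variable, at 5.38, 9.02 and 1.91 FPKM against 22.3, 4.64 and 8.49. In the list of interferon receptors and JAK-STAT genes, 15 of 24 were above 0, with a median of 0.066 that turned below 0 in the unnormalized table scaled to the median.

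Stat2 and Irf9, transcription factors of type I interferon signalling, did not pass. Stat2 was at 22.4 ± 5.16 FPKM in Mock and at 33.6 ± 8.44 in β8 isotype (0.56 ± 0.24, limma adjusted p = 0.363), and Irf9 29.0 ± 5.75 and 45.8 ± 5.48 (0.65 ± 0.20, limma adjusted p = 0.193). In both, every β8 isotype pool lay above every Mock pool. Irf7, the factor that amplifies type I interferon responses, rose from 40.7, 45.3 and 56.5 FPKM to 136, 103 and 94.6 (1.20 ± 0.19, limma adjusted p = 0.0331, 5 of 16 alternatives). It did not pass once any single pool was left out.

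The targets of type I interferon moved together. Of 42 members tested in this list of 45, 41 were above 0 against 5902 of all 11507 genes, the median difference was 0.82 against 0.013, and 35 had β8 isotype pools wholly above Mock against 9.31% of all genes. In number 5 passed (0.295% of all genes did), among them Lgals3bp, Bst2, Irf7 and Rtp4. Over the alternatives the median of the list lay between 0.58 and 0.86. Mx1 was the 1 member below 0, and Ifit2, Oas1g and Oas2 did not reach the level for a test. Lgals3bp, a secreted galectin-binding glycoprotein, was highest in difference of those that passed, at 24.0, 38.5 and 41.5 FPKM in Mock and 133, 136 and 92.7 in β8 isotype (1.78 ± 0.23, limma adjusted p = 0.0139, 12 of 16 alternatives); it did not pass without β8 isotype pool 2. Bst2, or tetherin, which holds budding viruses at the cell surface, measured 261, 204 and 236 FPKM and 438, 441 and 392 (0.86 ± 0.12, limma adjusted p = 0.0202, 8 of 16 alternatives). Here too no β8 isotype pool came near a Mock pool. Rtp4, an interferon-induced chaperone of receptors, rose from 27.6 ± 5.11 to 64.2 ± 13.9 FPKM (1.18 ± 0.22, limma adjusted p = 0.0495, 2 of 16 alternatives).

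Other antiviral genes lay just above the threshold. Oas1a, which makes the 2-5A signal that activates RNase L, measured 26.5, 22.1 and 21.4 FPKM in Mock and 46.9, 52.9 and 41.8 in β8 isotype (0.99 ± 0.19, limma adjusted p = 0.0551). Ifit3, which binds viral RNA complexes, measured 3.43, 10.8 and 7.45 and then 22.7, 25.5 and 23.6 (1.71 ± 0.34, limma adjusted p = 0.0559); the near-identical Ifit3b can share its reads. The ubiquitin-like modifier Isg15 was already high in Mock, at 148, 156 and 164 FPKM, and measured 203, 249 and 220.1 in β8 isotype (0.52 ± 0.13, limma adjusted p = 0.112). Its conjugating enzyme Ube2l6, which was not in the list, passed, at 58.7 ± 10.4 and 124 ± 17.2 FPKM (1.07 ± 0.18, limma adjusted p = 0.0397, 5 of 16 alternatives), and its deconjugating enzyme Usp18 measured 7.98 ± 1.69 and 16.8 ± 1.27 (1.00 ± 0.26, limma adjusted p = 0.128). In each of these 5 genes every β8 isotype pool lay above every Mock pool.

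**Figure D2:**
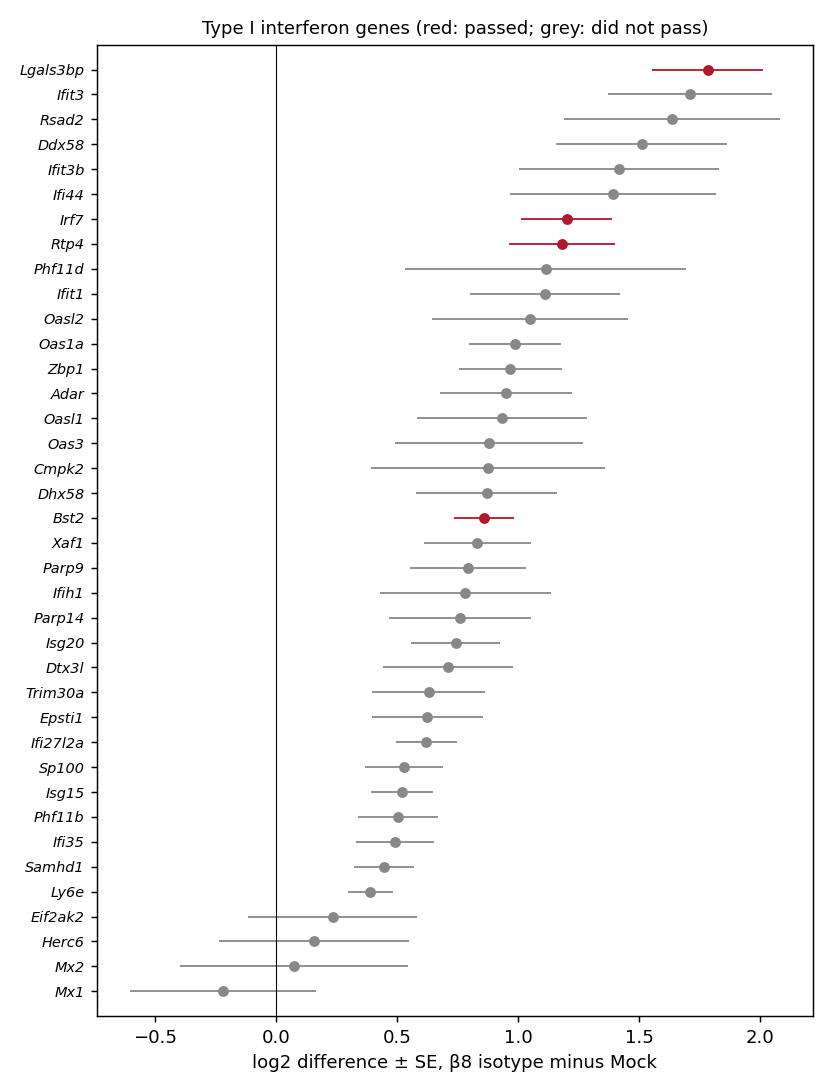
Each tested type I interferon gene that is not also in the receptor and JAK-STAT list (38 genes) is a point at its log2 difference, β8 isotype minus Mock, with a line of ± 1 SE of the limma fit; red genes passed and grey ones did not. All but Mx1 lie to the right of 0, and the 4 of them that passed are spread over the range of differences.

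The promoters of these genes were searched for the letters that interferon-activated factors bind. Promoters came from RefSeq (GRCm38.p6), from 250 bases before to 50 bases after a start site, and 31 of the 42 tested members had 38 of them. The interferon-stimulated response element was searched as GAAA, any 2 bases and GAAA again, and the STAT site as TTCNNNGAA, both on either strand. The first was found in 15 of the 38 (39.5%), in 3.33% of the 10396 promoters of genes tested and in 3.44% of all 32851 promoters. The second was found in 18.4%, 6.68% and 8.3% of the same sets. Of the 24 promoters of genes that passed higher, 3 (12.5%) held the first and 3 (12.5%) the second, and of the 11 of genes that passed lower 0 held the first and 2 (18.2%) the second. Windows that hold both motifs were found for Bst2, Oas1a and Eif2ak2, and those of Bst2, which passed, and of Oas1a, whose levels are given above, are printed. Capitals mark the matches, and in Bst2 the first response element overlaps the STAT site and the other response element. In Oas1a the 2 response elements overlap near the start site, and the STAT site lies apart from them upstream.

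Bst2, chr8:71537423-71537722, minus strand: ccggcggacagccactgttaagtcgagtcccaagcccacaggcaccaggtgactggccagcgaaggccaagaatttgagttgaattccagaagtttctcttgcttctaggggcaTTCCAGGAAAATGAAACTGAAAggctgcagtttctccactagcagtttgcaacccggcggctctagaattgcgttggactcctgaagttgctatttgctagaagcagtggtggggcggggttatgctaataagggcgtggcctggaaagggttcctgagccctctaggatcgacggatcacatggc
Oas1a, chr5:120907476-120907775, minus strand: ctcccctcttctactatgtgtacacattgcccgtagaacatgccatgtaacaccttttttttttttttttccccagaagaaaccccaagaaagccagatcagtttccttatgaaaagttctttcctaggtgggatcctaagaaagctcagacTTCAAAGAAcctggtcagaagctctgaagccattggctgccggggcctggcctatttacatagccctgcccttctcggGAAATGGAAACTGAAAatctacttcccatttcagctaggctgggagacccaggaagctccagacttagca

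The windows of Lgals3bp and Irf7, which also passed, hold neither string, which says only that these letters are not in those 300 bases. Ly6a had no entry in the promoter table.

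Genes that interferon-γ induces were higher in the same pools. All 22 tested members of the list of GTPases and interferon regulatory factors were above 0, with a median difference of 0.76, and 16 had higher non-overlapping pools, against 9.31% of all genes. The 1 that passed was Irgm1, a GTPase that controls autophagy and defence against intracellular pathogens, at 32.5, 37.6 and 32.8 FPKM in Mock and 78.5, 63.6 and 63.9 in β8 isotype (0.98 ± 0.17, limma adjusted p = 0.045, 3 of 16 alternatives). The next in order were the guanylate-binding protein Gbp2, at 19.5 ± 3.45 and 45.0 ± 10.1 FPKM, and the GTPase Igtp, at 139 ± 27.2 and 248 ± 39.9, each with a limma adjusted p = 0.0559. Cxcl10, the chemokine that attracts CXCR3-bearing T cells, measured 148, 183 and 120.0 FPKM in Mock and 269, 215 and 264 in β8 isotype (0.74 ± 0.17, limma adjusted p = 0.0866). Irf1 overlapped between groups, at 159, 235 and 162 FPKM against 389.8, 234 and 310.2.

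Genes that cut, transport and load peptides for MHC class I were also higher. In this list 20 of 23 were above 0, the median was 0.55, 16 had higher and 1 had lower non-overlapping pools, and 5 passed. The shares over all genes were 9.31% and 8.66%, and 0.295% passed higher. Psmb8, a catalytic subunit of the immunoproteasome, measured 480.0, 564 and 511 FPKM in Mock and 870.0, 821 and 795 in β8 isotype (0.68 ± 0.098, limma adjusted p = 0.0209, 7 of 16 alternatives). Psme2, a subunit of the proteasome activator PA28, rose from 478 ± 22.6 to 703 ± 49.9 FPKM (0.55 ± 0.098, limma adjusted p = 0.045, 4 of 16 alternatives). The transporter that moves peptides into the endoplasmic reticulum is a pair of Tap1 and Tap2. Tap1 measured 122, 131 and 83.2 FPKM in Mock and 312, 205 and 216 in β8 isotype (1.12 ± 0.20, limma adjusted p = 0.0495, 4 of 16 alternatives), and Tap2 147, 144 and 102 and then 328, 219 and 235 (0.98 ± 0.19, limma adjusted p = 0.0551, not passed). In both genes β8 isotype pool 1 was the highest.

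Tapbp, or tapasin, which bridges the transporter and the class I molecule, had the largest difference of the list, at 168, 189 and 135 FPKM against 480.0, 342 and 331 (1.22 ± 0.17, limma adjusted p = 0.0186, 10 of 16 alternatives). It did not pass without Mock pool 1, Mock pool 3 or β8 isotype pool 2. H2-T23, which encodes the Qa-1 molecule that NK cell receptors read, rose from 342 ± 53.6 to 578 ± 63.4 FPKM (0.76 ± 0.14, limma adjusted p = 0.045, 5 of 16 alternatives). The classical chain H2-K1 measured 2188, 2244 and 1791 FPKM and then 3094, 2765 and 2765 (0.48 ± 0.096, limma adjusted p = 0.059), and H2-Q7 986 ± 139 and 1503 ± 173 (0.61 ± 0.12, limma adjusted p = 0.0551). Sequences of class I genes are much alike, so reads can be shared among them. The light chain B2m stayed within its spread, at 3501 ± 133 and 3467 ± 324 FPKM, with overlapping pools. Of these genes 4 lie in the MHC region of chromosome 17: Tapbp at 33915899 to 33929292, Tap1 at 34187553 to 34197225, Psmb8 at 34197721 to 34201454 and H2-T23 at 36029773 to 36032855 of GRCm38. Between 33000000 and 38000000 of that chromosome, 127 genes were tested, 80 were above 0 (median 0.088), 25 had higher and 10 lower non-overlapping pools, and 4 passed higher and 1 lower. Of 448 genes on the rest of the chromosome 224 were above 0 (median 0.00076), 39 had higher and 26 lower non-overlapping pools, and 0 passed higher and 1 lower. Of all genes 9.31% had higher and 8.66% lower non-overlapping pools, and 0.295% passed higher and 0.165% lower.

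**Figure D3:**
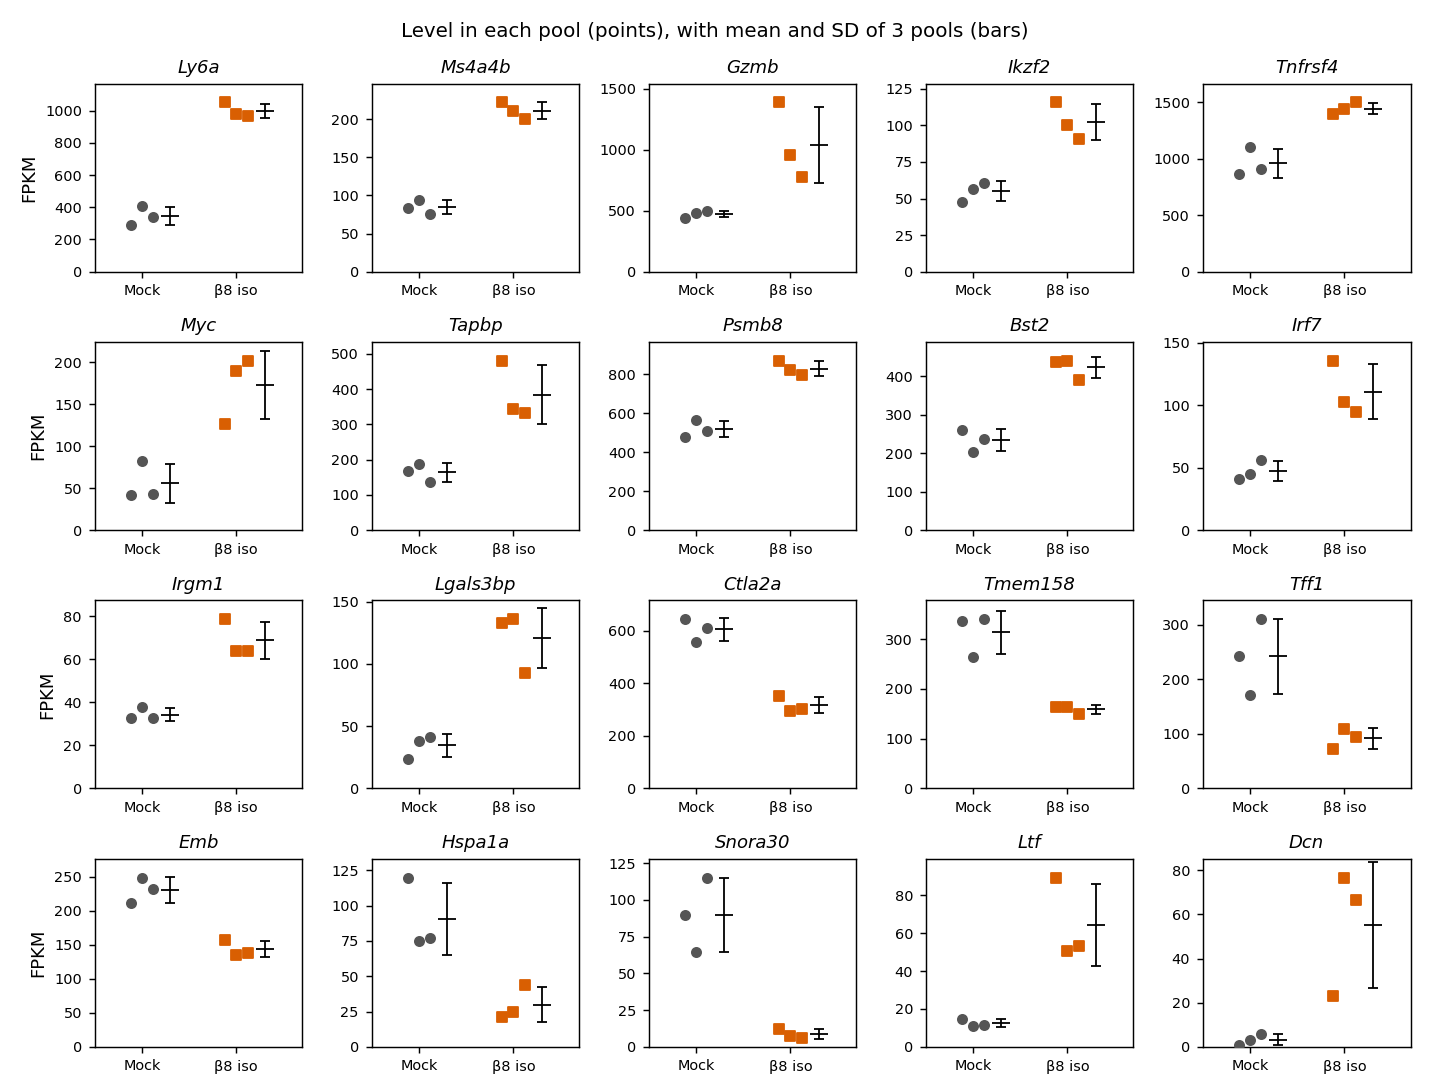
Each panel gives the FPKM of 1 gene in the 3 Mock pools (grey circles) and the 3 β8 isotype pools (orange squares), with a bar at the mean and ± 1 SD. In all 20 genes the groups do not overlap; Ly6a, Ms4a4b and Ctla2a have narrow groups, while Gzmb, Myc and Dcn spread widely in β8 isotype.

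Of the genes that mark Tregs, Tnfrsf4 and Ikzf2 were higher, and the other members tested, Foxp3 among them, did not pass. In the identity list 21 of 29 were above 0 (median 0.29), and 13 had higher non-overlapping pools, against 9.31% of all genes. Tnfrsf4 and Ikzf2 were the 2 that passed, against 0.295% of all genes that passed higher. Tnfrsf4 encodes OX40, a costimulatory receptor of the TNF family, and measured 864, 1103 and 912 FPKM in Mock and 1398, 1439 and 1499.6 in β8 isotype (0.60 ± 0.10, limma adjusted p = 0.0417, 5 of 16 alternatives). Ikzf2 encodes Helios, a transcription factor that stabilises Tregs, and measured 47.5, 56.4 and 60.8 FPKM and then 116, 99.99 and 90.9 (0.88 ± 0.16, limma adjusted p = 0.0495). Its call held in 1 of 16 alternatives and in none that left out a pool. Foxp3 differed by -0.094 ± 0.19 (limma adjusted p = 0.887), and the interleukin-2 receptor chain Il2ra measured 112 ± 6.95 and 131 ± 16.7 FPKM (0.22 ± 0.14, limma adjusted p = 0.584). In the checkpoint and costimulation list 15 of 20 were above 0 (median 0.42), and 10 had higher non-overlapping pools, against 9.31% of all genes. Tnfrsf4, which it shares with the identity list, was the 1 that passed. Icos measured 179, 159 and 144 FPKM and then 345, 238 and 237 (0.75 ± 0.16, limma adjusted p = 0.0843). The GITR gene Tnfrsf18 measured 851 ± 88.8 and 1142 ± 28.0 FPKM (0.43 ± 0.096, limma adjusted p = 0.089), and the inhibitory receptor Ctla4 373, 558 and 417 and then 854, 598 and 700.3 (0.68 ± 0.17, limma adjusted p = 0.112). The cytokine gene Il10 overlapped between groups, at 33.7, 59.1 and 33.7 FPKM and 79.3, 54.3 and 43.7 (0.49 ± 0.27, limma adjusted p = 0.50).

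Trac, the constant segment of the T cell receptor α chain, also passed, at 1671 ± 104 and 2214 ± 28.0 FPKM (0.41 ± 0.075, limma adjusted p = 0.0495, 3 of 16 alternatives); as a receptor segment it is not named by the rule and was picked with its values in view. In the list of the T cell receptor complex and its kinases 17 of 22 were above 0 (median 0.23) and 0 passed, with the phosphatase Ptprc (CD45) at 64.6 ± 0.889 and 114 ± 25.1 FPKM (0.78 ± 0.18, limma adjusted p = 0.0881). Among the 28 chemokine receptor and homing genes 13 were above 0 and 0 passed. Cxcr3, the receptor for Cxcl10, came nearest, at 55.4, 66.7 and 34.0 FPKM against 126, 103 and 109.5 (1.15 ± 0.23, limma adjusted p = 0.0559), and the integrin Itgb7 measured 349 ± 44.6 and 539 ± 65.3 (0.63 ± 0.13, limma adjusted p = 0.0633).

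Cytotoxic and type 1 helper genes split. Granzyme B, Gzmb, a protease that kills target cells, measured 442, 480.0 and 494 FPKM in Mock and 1386, 954 and 776 in β8 isotype (1.10 ± 0.18, limma adjusted p = 0.045, 4 of 16 alternatives). Every β8 isotype pool lay above Mock, with pool 1 far above the other two. Il12rb1, a receptor chain for interleukin-12 and interleukin-23, rose from 19.1 ± 0.852 to 43.8 ± 9.94 FPKM (1.13 ± 0.21, limma adjusted p = 0.0495, 1 of 16 alternatives). Gzmc measured 11.8, 9.29 and 26.5 FPKM and then 70.8, 43.3 and 35.2 (1.66 ± 0.38, limma adjusted p = 0.0992), and perforin, Prf1, 1.39 ± 1.22 and 6.54 ± 2.16 (1.79 ± 0.50, limma adjusted p = 0.158). The interleukin-18 receptor chain Il18rap lay the other way, at 16.2, 10.6 and 8.24 FPKM against 4.29, 3.67 and 3.56 (-1.34 ± 0.33, limma adjusted p = 0.112), as did the chemokine Ccl5 (-0.33 ± 0.095, limma adjusted p = 0.166). In this list 15 of 21 were above 0 (median 0.27), 7 had higher and 4 lower non-overlapping pools, and 2 passed. The shares over all genes were 9.31% and 8.66%, and 0.295% passed higher.

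Myc, the transcription factor that drives growth and metabolism, rose from 42.2, 83.0 and 42.8 FPKM to 126, 189.9 and 202 (1.65 ± 0.28, limma adjusted p = 0.045, 6 of 16 alternatives). It did not pass without Mock pool 1, Mock pool 3, β8 isotype pool 2 or β8 isotype pool 3. Genes of proliferation lay higher as groups, with 0 members that passed. Of 29 DNA replication genes 25 were above 0 (median 0.77) and 15 had higher non-overlapping pools, and of 30 genes of G2/M and mitosis 27 were above 0 (median 1.05) and 7 had. Over all genes that share was 9.31%. The median of the mitosis list ranged from 0.52 to 1.41 over the alternatives. The helicase subunit Mcm5 measured 19.2, 34.6 and 23.5 FPKM in Mock and 45.0, 54.2 and 56.8 in β8 isotype (1.02 ± 0.23, limma adjusted p = 0.09). Top2a, the topoisomerase of mitotic cells, measured 10.1, 5.8 and 12.3 FPKM and then 19.2, 46.3 and 33.0 (1.67 ± 0.35, limma adjusted p = 0.0674). The proliferation marker Mki67 was low in every pool, at 1.1, 1.62 and 2.96 FPKM and 3.39, 6.98 and 8.11. In Top2a and Mki67 the 1st β8 isotype pool, which was highest for Gzmb and Tap1, was the lowest of its group. In these bulk pools more cycling cells and more RNA per cell cannot be told apart, and the same holds for every gene given here. Cyclin D2, Ccnd2, had the smallest p of the higher genes that did not pass, at 298, 205 and 244 FPKM against 487, 404 and 395 (0.79 ± 0.15, limma adjusted p = 0.0525).

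Enzymes of glycolysis lay higher by less. In that list 16 of 18 were above 0 (median 0.32), and 11 had higher non-overlapping pools, against 9.31% of all genes. Enolase, Eno1, passed, at 714 ± 30.5 and 1024 ± 71.5 FPKM (0.52 ± 0.091, limma adjusted p = 0.045, 4 of 16 alternatives). Lactate dehydrogenase, Ldha, measured 669, 839 and 785 FPKM and then 1063, 1078 and 1199 (0.55 ± 0.10, limma adjusted p = 0.0551). Nuclear genes of the respiratory chain had a median of 0.033 with 20 of 30 above 0, and the 11 mitochondrially encoded transcripts one of 0.047; each changed sign in 4 alternatives. Of the unfolded protein response genes 18 of 25 were above 0 (median 0.31). Among them the disulfide isomerase Pdia4, which folds proteins in the endoplasmic reticulum, passed, at 36.5, 56.1 and 47.4 FPKM and 99.7, 107 and 87.1 (1.07 ± 0.19, limma adjusted p = 0.045, 5 of 16 alternatives), and the related Pdia6 measured 73.8 ± 9.98 and 128 ± 20.6 (0.79 ± 0.17, limma adjusted p = 0.0697). Genes outside the lists that passed higher were the transcription factor Cebpb, at 598 ± 25.6 and 880.0 ± 80.6 FPKM (0.55 ± 0.098), the cytoskeletal actin Actg1, at 655 ± 21.5 and 956 ± 68.3 (0.54 ± 0.092), Esyt1, a tether between the endoplasmic reticulum and the plasma membrane, at 42.5 ± 3.28 and 78.1 ± 6.28 (0.86 ± 0.16), and the secreted growth factor progranulin, Grn, at 29.2 ± 8.64 and 77.8 ± 13.7 (1.40 ± 0.22). Cebpb and Actg1 passed in 4 of 16 alternatives, Esyt1 in 2 and Grn in 7. Macrophages also make progranulin, and their markers are given below.

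Further lists held few or no genes that passed. Of 8 GIMAP genes, GTPases of lymphocyte survival, 6 were above 0 (median 0.31), with Gimap4 at 192 and 310.3 FPKM as group means (0.73 ± 0.18, limma adjusted p = 0.112). Of 22 genes of cholesterol synthesis and uptake 15 were above 0 (median 0.26), and of 31 constitutive proteasome subunits 19 were (median 0.11). Of 19 S100, galectin and annexin genes 11 were above 0 (median 0.067). Galectin-9, Lgals9, came nearest to passing among them, at 90.2, 91.4 and 94.9 FPKM in Mock and 145, 148 and 139 in β8 isotype (0.64 ± 0.13, limma adjusted p = 0.057), with narrow groups far apart. The early genes of T cell receptor signalling had 12 of 22 above 0 (median 0.095) and Myc as the 1 that passed. NF-κB genes had 8 of 20 above 0 (median -0.061) and genes of naive and central memory T cells 6 of 17 (median -0.078). The medians of these last 3 lists and of the S100 list each changed sign in 1 alternative.

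**Figure D4:**
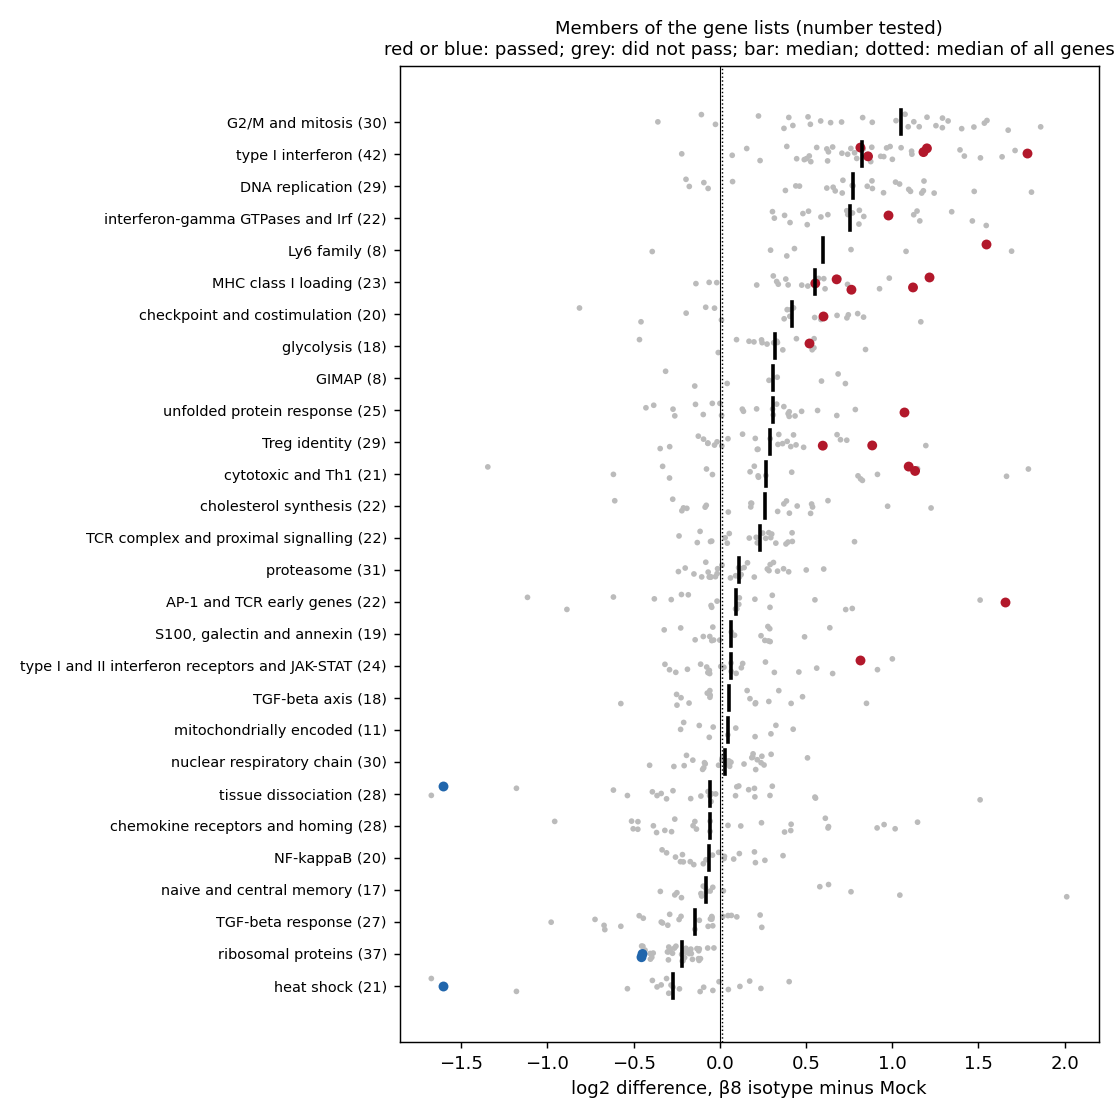
Each row is 1 gene list with the number of members tested, each point a member at its log2 difference, β8 isotype minus Mock, in red or blue if it passed and grey if not; the black bar is the list's median and the dotted line the median of all genes tested (0.013). The interferon, GTPase, DNA replication and mitosis lists have medians of 0.76 to 1.05, while the ribosomal, heat shock and TGF-β response lists lie below 0.

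Genes of TGF-β handling and response differed little. Tgfb1 measured 129, 87.3 and 101 FPKM in Mock and 134, 91.8 and 143 in β8 isotype (0.21 ± 0.20, limma adjusted p = 0.738), and Lrrc32, which encodes GARP, 57.5, 61.2 and 50.3 and 84.5, 58.2 and 74.1 (0.34 ± 0.18, limma adjusted p = 0.479). The pools of both overlapped. The αvβ8 subunits in the Tregs themselves were Itgav, at 338 ± 43.1 and 325 ± 39.5 FPKM (-0.057 ± 0.13, limma adjusted p = 0.906), and Itgb8, at 12.1, 7.1 and 10.5 and then 10.8, 10.8 and 6.78 (-0.055 ± 0.31, limma adjusted p = 0.963). The pools of both overlapped, and the level of Itgb8 in Tregs does not check the transfection, which was of the tumour cells. In the list of ligand, carriers, receptors and SMADs 9 of 18 were above 0 and 0 passed in either direction, with a median of 0.052 that changed sign in 5 alternatives. Nrros, a carrier of latent TGF-β related to GARP, measured 39.9 ± 6.38 and 56.2 ± 10.04 FPKM (0.48 ± 0.19, limma adjusted p = 0.338).

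Genes that TGF-β induces lay below 0 more often than above. Of 27 tested 21 were below 0 (median -0.14, range over the alternatives -0.27 to -0.081), 5 had lower and 0 higher non-overlapping pools, and 0 passed. Of all genes 8.66% had lower and 9.31% higher non-overlapping pools. Bhlhe40, a transcriptional repressor, had the smallest p, at 1155, 825 and 973 FPKM and 806, 595 and 730.3 (-0.47 ± 0.14, limma adjusted p = 0.186). The cell cycle inhibitor Cdkn2b, a classical TGF-β target, measured 15.2, 11.99 and 23.7 FPKM and 9.8, 8.4 and 5.7 (-0.98 ± 0.31, limma adjusted p = 0.222), and Ldlrad4, an inhibitor of SMAD signalling, 28.6 ± 5.95 and 17.5 ± 2.64 (-0.67 ± 0.23, limma adjusted p = 0.252). Itgae, the CD103 integrin chain, measured 58.9, 49.0 and 46.4 FPKM and 65.9, 44.1 and 50.9 (0.048 ± 0.19, limma adjusted p = 0.951).

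Among the falls, Ctla2a had the smallest p of the protein-coding genes. It encodes a cathepsin inhibitor of activated T cells, and measured 645, 559.7 and 612 FPKM in Mock and 354, 295 and 304 in β8 isotype (-0.93 ± 0.11, limma adjusted p = 0.0102, 13 of 16 alternatives). Reads can be shared with its near-identical neighbour Ctla2b. The call was lost without Mock pool 3. Tmem158, a membrane protein first found as a Ras-induced gene, fell from 336, 264 and 339.9 FPKM to 164, 164 and 149 (-0.97 ± 0.13, limma adjusted p = 0.0178, 9 of 16 alternatives). Tff1, a secreted trefoil peptide known from the stomach, fell from 244, 172 and 310.2 FPKM to 71.7, 109 and 94.5 (-1.37 ± 0.22, limma adjusted p = 0.035, 7 of 16 alternatives). In Tmem158 the β8 isotype pools agreed closely, and in Tff1 the Mock pools spread over a wide range above them.

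Further falls were of Emb, or embigin, a partner of lactate transporters, at 211, 248 and 232 FPKM and then 156, 135 and 138 (-0.68 ± 0.13), and of the keratin Krt83, at 90.1 ± 18.4 and 39.8 ± 5.53 (-1.15 ± 0.19). Mvb12b, a subunit of the ESCRT-I sorting complex, fell from 30.5 ± 4.02 to 12.05 ± 2.52 FPKM (-1.28 ± 0.23), and the superoxide dismutase Sod1 from 344 ± 40.0 to 209 ± 22.96 (-0.71 ± 0.13). These 4 genes passed in 2 to 6 of 16 alternatives. Dgat2, which makes triglycerides, did not pass, at 184, 128 and 172 FPKM against 89.9, 73.8 and 94.8 (-0.89 ± 0.17, limma adjusted p = 0.0551), nor did Sap25 (-2.16 ± 0.41, limma adjusted p = 0.0544).

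All 37 ribosomal protein genes tested were below 0, by a small amount. Their median was -0.22, 23 had lower non-overlapping pools against 8.66% of all genes, and 2 in the list passed, Rps27 at 3052 ± 169.9 and 2231 ± 186 FPKM (-0.45 ± 0.081, limma adjusted p = 0.0471) and Rps14 at 2014 ± 51.8 and 1479 ± 118 (-0.45 ± 0.082, limma adjusted p = 0.0493). Rpl17, outside the list, fell from 615 ± 33.7 to 425 ± 22.4 FPKM (-0.53 ± 0.099, limma adjusted p = 0.0495). Over all genes 0.165% passed lower. Rps27 passed in 4 of 16 alternatives, and Rps14 and Rpl17 in 3. These genes have many processed pseudogenes that can take their reads, and of the 440 processed pseudogenes tested 322 were below 0 too. Heat shock genes lay lower, with 16 of 21 below 0 (median -0.27). Hspa1a, an inducible HSP70 chaperone, fell from 119.9, 74.6 and 77.0 FPKM to 21.4, 24.4 and 44.0 (-1.60 ± 0.28, limma adjusted p = 0.045, 4 of 16 alternatives), and its near copy Hspa1b, with which it shares reads, measured 114, 92.6 and 112 and then 21.2, 26.6 and 60.2 (-1.67 ± 0.33, limma adjusted p = 0.073). The small heat shock protein Hspb1 measured 25.04 ± 0.924 and 10.96 ± 4.21 FPKM (-1.18 ± 0.27, limma adjusted p = 0.0962). Hspa1a, Hspa1b and Hspb1 are also among the genes that tissue dissociation induces, a list of 28 with 17 below 0 and a median of -0.054; the part of cell isolation in these values was not tested.

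Small RNAs were among the falls. The small nucleolar RNA (snoRNA) Snora30 had the largest change of them, and its sequence is printed because it shows the snoRNA class: it is an H/ACA snoRNA, a class that guides pseudouridine formation, and capitals mark the ACA before its end (GENCODE M21, GRCm38, DNA letters).
Snora30, chr7:127527874-127528003, plus strand: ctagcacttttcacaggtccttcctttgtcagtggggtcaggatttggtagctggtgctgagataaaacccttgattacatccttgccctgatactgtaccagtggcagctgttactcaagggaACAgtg

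Snora30 measured 89.6, 64.6 and 115 FPKM in Mock and 12.2, 7.65 and 6.24 in β8 isotype (-3.23 ± 0.28, limma adjusted p = 0.00095, 14 of 16 alternatives). It lies inside Srcap on the same strand, and this host gene measured 22.4, 28.3 and 22.4 FPKM and 12.9, 19.0 and 20.5 (-0.47 ± 0.24, limma adjusted p = 0.459), a smaller difference that did not pass. Snord13, a C/D snoRNA that guides acetylation of ribosomal RNA, fell from 4296, 4919.7 and 3977 FPKM to 2765, 3197 and 2969.8 (-0.56 ± 0.089, limma adjusted p = 0.0343, 4 of 16 alternatives), and the vault RNA gene Vaultrc5 from 149, 118 and 132 to 64.6, 59.7 and 45.8 (-1.22 ± 0.17, limma adjusted p = 0.0186, 9 of 16 alternatives). Neither of them overlaps another gene. Of the 59 snoRNA genes tested 42 were below 0 (median -0.56) and 2 passed lower, against 0.165% of all genes. FPKM divide by length, so at 130, 104 and 143 nt a few fragments can give high values, and read counts are not in the tables. In all 4 predicted or pseudogene transcripts passed lower as well, and of these Gm33104, a long intergenic RNA on chromosome 10, had the highest level, at 64.1, 53.1 and 68.3 FPKM against 31.0, 27.9 and 22.1; it passed in 7 of 16 alternatives and was picked with its values in view.

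Some markers of cells other than Tregs differed between the groups, while the sums of most marker lists overlapped. The part of such cells in the results above was not tested. Of the fibroblast markers, Dcn, Col3a1 and Lum gave large differences. The proteoglycan decorin, Dcn, measured 1.03, 3.06 and 5.82 FPKM in Mock and 22.9, 76.7 and 66.3 in β8 isotype (3.71 ± 0.55, limma adjusted p = 0.0418), the collagen Col3a1 4.00, 3.07 and 2.44 and then 17.6, 47.2 and 63.7 (3.23 ± 0.42, limma adjusted p = 0.0139), and the proteoglycan Lum 1.18 ± 0.317 and 12.3 ± 6.42 (2.48 ± 0.45, limma adjusted p = 0.0487). In each, β8 isotype pool 1 was the lowest of its group, where for Gzmb and Tap1 it was the highest. Of 10 fibroblast markers 6 were tested and these 3 passed, against 0.295% of all genes that passed higher. Dcn passed in 7, Col3a1 in 10 and Lum in 4 of 16 alternatives. The summed list was 198, 136 and 153 FPKM in the Mock pools and 155, 380.0 and 304 in the β8 isotype pools, of which Thy1, which T cells also express, was 174, 112 and 133 and then 94.8, 179.6 and 111. Without Thy1 the sums were 23.2, 23.4 and 20.3 FPKM in Mock and 59.9, 200.4 and 193 in β8 isotype, and the groups did not overlap. The defining receptor Pdgfra was at 0 in all Mock pools and at 0.0111, 0.0604 and 1.23 FPKM in β8 isotype. Col1a1 measured 0.312, 0.152 and 0.0858 FPKM and then 0.566, 0.863 and 2.85. In unnormalized FPKM Col1a2 measured 0.472, 0.258 and 0.00 and then 0.533, 0.354 and 0.237, and Pdgfrb was at most 0.0419. These 4 markers did not reach the level for a test. The matrix protein Cyr61, listed with tumour cells, rose from 0.942 ± 0.858 to 20.5 ± 12.8 FPKM (3.35 ± 0.56, limma adjusted p = 0.0402, 4 of 16 alternatives). In Mock pool 1 Lum was at 0.817 FPKM and Cyr61 at 0.00. Both reached 1 FPKM in 3 libraries only with their β8 isotype pools, so they were tested only because of those pools. The tumour list summed to 171 to 210.2 FPKM in Mock and 228 to 287 in β8 isotype. Of this sum Areg, which is also in the Treg identity list, was 93.7, 124 and 86.7 FPKM and then 201, 152 and 143. The epithelial markers Krt18 and Epcam overlapped between the groups.

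Immunoglobulin segments Ighg2c and Igkv3-4, which plasma cells express, were at 0.00, 0.0661 and 0.00 FPKM and at 0.00, 0.00 and 2.34 FPKM in Mock, and at 68.5, 8.84 and 31.1 and at 45.0, 34.1 and 135 in β8 isotype. Both were picked with their values in view. Ighg2c reached the level for a test only through the β8 isotype pools, so it had to differ and its test is not given, and Igkv3-4 passed (limma adjusted p = 0.0169, 10 of 16 alternatives). Mock pool 3 was the only Mock pool with Igkv3-4 at 1 FPKM or more, so Igkv3-4 too was tested only because of its β8 isotype pools. Other variable segments of the same family can take reads of Igkv3-4. Of 10 tested B and plasma cell markers 0 passed, 9 were above 0 (median 0.77), 3 had an unadjusted p under 0.05, all higher, and 2 had higher non-overlapping pools. Over all genes the last 2 shares were 6.74% and 9.31%. Their sum, mostly Igkc and Ighm, overlapped, at 654 to 1092 FPKM in Mock and 704 to 1594 in β8 isotype.

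Lactoferrin, Ltf, an iron-binding protein of neutrophil granules, rose from 14.9, 11.1 and 11.8 FPKM to 89.3, 50.5 and 53.4 (2.23 ± 0.25, limma adjusted p = 0.00627, 14 of 16 alternatives). It was the 1 gene of 12 neutrophil markers that reached the level for a test. Ly6g, Camp and Retnlg, which define neutrophils, were at 0 in all 6 pools, and S100a9 was at most 4.97 FPKM and highest in Mock pool 1. Of 13 macrophage and monocyte markers tested the monocyte chemokine Ccl7 passed, at 1.27, 0.985 and 0.00 FPKM and 7.64, 14.1 and 12.6 (2.87 ± 0.43, limma adjusted p = 0.0281, 9 of 16 alternatives). Mock pool 1 alone of its group reached 1 FPKM, so Ccl7 was tested only because of its β8 isotype pools. The complement gene C1qc measured 2.01, 1.33 and 2.91 FPKM and 23.8, 11.8 and 6.13 (2.12 ± 0.46, limma adjusted p = 0.0767). In the macrophage and monocyte list 9 were above 0 and 4 below (median 0.16). Lyz2 measured 425, 220 and 271 FPKM and then 489, 197 and 138, and Cd14 81.9, 35.8 and 74.5 and then 124, 38.6 and 25.1. Within its group β8 isotype pool 1 was the lowest for Ccl7 and the highest for C1qc, Lyz2 and Cd14. The sum of that list overlapped, at 383 to 768 FPKM in Mock and 323 to 985 in β8 isotype.

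Globins lay the other way. Hbb-bt fell from 34.97, 6.92 and 34.1 FPKM to 1.59, 0.57 and 0.917 (-3.44 ± 0.55, limma adjusted p = 0.035, 6 of 16 alternatives). Of its β8 isotype pools only pool 1 reached 1 FPKM, so Hbb-bt was tested only because of its Mock pools. Red cell markers summed to 61.4 to 327 FPKM in Mock and 30.1 to 40.2 in β8 isotype. The globin genes are near copies that can share reads. Dendritic cell markers summed to 2769 to 4835 and 3414 to 5799 FPKM, and Bst2, an interferon gene that plasmacytoid dendritic cells also express, was their 1 member that passed. The sums of CD8 T cell markers (17.5 to 29.997 and 20.8 to 39.5 FPKM), NK markers (6.37 to 13.6 and 3.93 to 18.5) and endothelial markers (11.2 to 16.8 and 10.4 to 12.96) were low and overlapped. Of the 34 higher genes 11 are in the type I interferon, GTPase or MHC class I lists, which hold 42, 22 and 23 of the 11507 genes tested. A marker list of another cell type holds 7 of the 34, and the share of all genes in those lists was not counted. All these lists were chosen with earlier results of these data known.

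**Figure D5:**
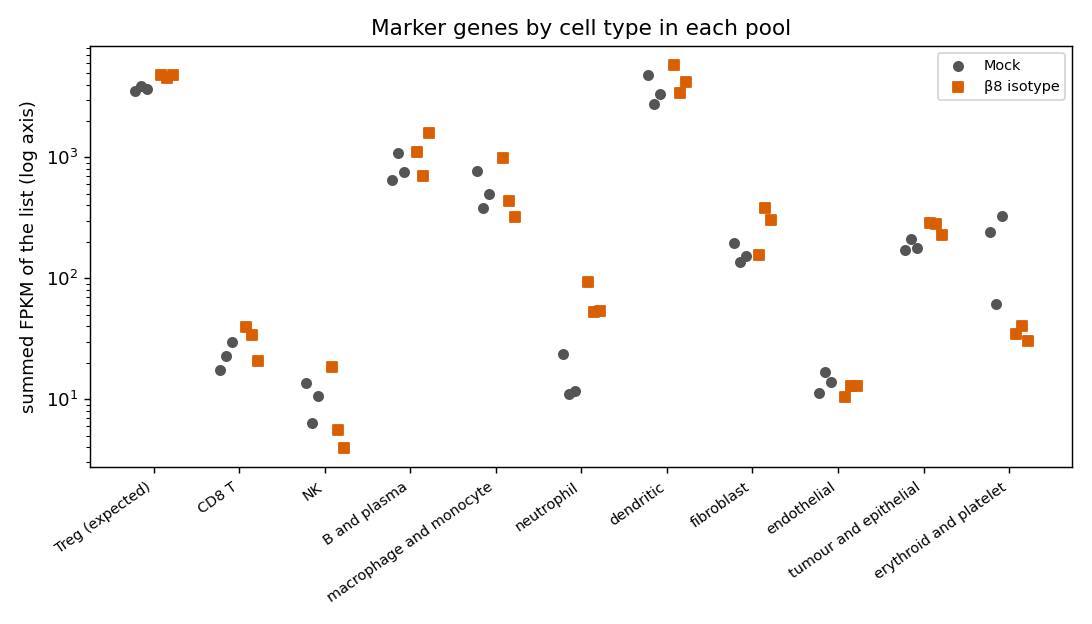
Each point is the summed FPKM of 1 marker list in 1 pool, on a log axis, with Mock as grey circles and β8 isotype as orange squares. The Treg sum is higher in every β8 isotype pool, the neutrophil list, which is Ltf almost alone, is higher and the red cell list lower. The tumour sum, which includes Areg, is higher too. The B cell, macrophage, dendritic, fibroblast, CD8, NK and endothelial sums overlap between the groups, and the fibroblast sum plotted includes Thy1.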

How the data were processed

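Libraries were made with SMART-Seq v4 and Nextera XT kits, per the labels' protocols, without molecular identifiers or strand marking. The deposited values are FPKM, per the sheet names. The build is GRCm38, and the tools listed are RSEM 1.3.1, STAR 2.6.1a, Cufflinks, Picard and Trim Galore 0.5.0, per the submitters' processing notes, with no word on which gave the values, and no read totals are given, so depth was estimated from low values. The normalized table of the authors holds the 16409 genes whose highest FPKM was above 1 and is quantile normalized (the 10000 highest sorted values of its libraries differ by at most 0.0907%). Names and coordinates came from GENCODE M21, which held 99.83% of the identifiers.

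Values were fitted as log2(FPKM + 1) in limma 3.58.1 (R 4.3.3), with trend and robust settings and a two-sided test adjusted over 11507 genes; a count model does not suit FPKM and was not used, and the fit was tested on simulated data. Replicates are pools labelled separately, and p-values measure the spread between pools only. The gene lists, the markers and the genes named were chosen with earlier results of these data known. Named were up to 20 of the largest rises and falls that passed, without predicted genes, pseudogenes and receptor segments. Some of the 6 next in each direction, list members of smallest p, and 12 fixed genes were named too. Log2 differences understate changes of low genes. Alternatives were other pseudocounts (0.1 and 5), filters (none and 5 FPKM), the unnormalized table, all 9 libraries, no trend, array weights, a replicate block and each pool left out. Some members of the lists are counted but not reported here.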

Additional observations from a re-analysis of the deposited data

How the results depend on the processing

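The numbers of genes that passed (53, 34 higher and 19 lower) changed with most settings. They were 13, 9 and 4 with a pseudocount of 0.1, 44, 29 and 15 with one of 5, 5, 3 and 2 without a filter, and 94, 58 and 36 with a filter at 5 FPKM. With a filter at 5 FPKM 50 of the 53 were among the genes that passed. The unnormalized table gave 20, 12 and 8, and 22, 11 and 11 once scaled to the median. All 9 libraries in 1 fit gave 1, 1 and 0 (677 at an unadjusted p under 0.05), limma without trend and robust settings 0, 0 and 0 (1300 at an unadjusted p under 0.05), and array weights 56, 34 and 22. Leaving out 1 pool gave 8 to 54 in all, 6 to 33 higher and 1 to 21 lower. The data did not show that the pool numbers pair the groups. Correlations of deviations were 0.076, -0.031 and -0.008 for pools of the same number and -0.062 to 0.076 for others. With 3 pools per group they cannot exclude a pairing, and a replicate block gave 78, 48 and 30. The causes were not tested. Of the genes named, signs changed for some that did not pass. With 1 pool left out, Foxp3 ranged from -0.22 to 0.083, Itgav from -0.16 to 0.037, Itgae from -0.11 to 0.18, Itgb8 from -0.26 to 0.15, B2m from -0.057 to 0.063, Ifnar1 from -0.19 to 0.19, Ifnar2 from -0.067 to 0.059, Mx1 from -0.53 to 0.046 and Thy1 from -0.42 to 0.041. In the unnormalized table Itgb8 was 0.041 and B2m 0.12. In that table scaled to the median B2m was 0.026, Itgae -0.0086, Ifnar1 -0.0045 and Ifnar2 -0.057, and with array weights B2m was 0.00086 and Ifnar1 -0.0083. The depth of FPKM is unknown in reads, which limits what can be said of genes near 1 FPKM: 749 genes reached that level in exactly 3 of the 6 libraries and 1016 in exactly 2.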
